A study of Mus musculus with 6 samples.

Results

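The proteins of the mitochondrial ribosome that carry the gene names Mrpl (large subunit) and Mrps (small subunit) were examined in differentiating mouse embryonic stem cells. They were chosen as the protein-coding rows of the deposited count table whose symbol is Mrpl or Mrps followed by a number and at most 1 letter. That rule found 78 genes, 49 of the large and 29 of the small subunit, among 55487 genes in the table, of which 21936 are protein-coding. Gene expression had been measured by poly(A) RNA-seq in 6 libraries. The 3 Ts1Cje libraries came from stem cells established from Ts1Cje mice, a Down syndrome model in which the distal end of chromosome 16 is present in 3 copies, and the 3 wild-type libraries from stem cells established from wild-type mice. Both groups had been kept with LIF and serum replacement and then treated with FGF2, BMP-4, activin A and VEGF until day 4 to induce primitive macrophage progenitors. The series was designed around a lower number of microglia, the resident macrophages of the brain, in Ts1Cje embryos. Its labels number the libraries of each genotype as lots, without stating whether a lot is a culture, an animal or a line of its own. The p-values therefore measure the spread between these libraries, which may be technical, and genotype and cell line cannot be told apart.

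Mitochondria hold ribosomes of their own, which translate the few proteins encoded by the mitochondrial genome, all of them subunits of the respiratory chain and the ATP synthase. The ribosomal RNAs come from the mitochondrial genome, whereas every mitoribosomal protein is encoded in the nucleus, made in the cytosol and imported. Some of these proteins have bacterial counterparts and others are found only in mitochondria. A large and a small subunit are assembled separately, and a missing protein can stall the assembly of its subunit. In the known structures a few proteins do not follow their names: Mrps18a and Mrps30 sit in the large subunit, and Mrps36 is now counted as a part of the oxoglutarate dehydrogenase complex.

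Total counts ran from 16577065 to 19010856 per library, and the 77 genes tested had between 212 and 2192 counts in each library. Wild-type replicate 1 stood apart from wild-type replicates 2 and 3 (chi-square per degree of freedom over all genes 14.2 and 18.0, against 4.70 between those 2), so counts are also given without it. Markers of other cell types differed between the genotypes. The summed level of 11 pluripotency and epiblast markers was 295 to 508 CPM (read counts scaled to the size of the library) in wild-type and 1623 to 2253 in Ts1Cje, and 9 of the 11 passed the test as higher. Endoderm markers summed to 306 to 345 CPM in wild-type and 820 to 1039 in Ts1Cje, and all 11 of 11 passed as higher. Early blood markers summed to 672 to 778 CPM in wild-type and 275 to 347 in Ts1Cje, with 6 of 11 lower and 4 higher. Of 12 macrophage and microglia markers 2 had enough counts to be tested, and the pan-leukocyte gene Ptprc and the microglial gene Cx3cr1 had 0 counts in every library. The macrophage list summed to 18.4 to 24.5 CPM in wild-type and 26.6 to 29.5 in Ts1Cje, and 1 of its 2 tested genes passed as higher. That was Cd68 (log2 fold change 0.80 ± 0.28, adjusted p = 0.0426, libraries overlapping), while Csf1r did not pass (adjusted p = 0.0703). Fibroblast markers summed to 21.5 to 55.3 CPM in wild-type and 9.81 to 11.2 in Ts1Cje, with 2 of 3 tested genes lower. In bulk RNA, a changed number of cells of a type and a changed amount of RNA per cell cannot be told apart. The part of these marker differences in the results below was not tested.

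Most mitoribosomal genes differed little between Ts1Cje and wild-type cells. Of 77 genes tested, 10 were higher in Ts1Cje, 4 were lower and 63 passed in neither direction (adjusted p below 0.05, edgeR quasi-likelihood test over 17315 genes). That is 18.2% called, against 43.8% of all genes tested, where 23.3% were higher and 20.5% lower. Among the 6619 other protein-coding genes whose mean level lay within the same range as the mitoribosomal genes (13.8 to 104 CPM), 49.2% were called, 26.1% higher and 23.1% lower. The share in the family was thus below the background in both directions, and no test was made of that difference. At an uncorrected p below 0.05, 20 of 77 genes passed. The count of 14 dropped to 8 without wild-type replicate 2, where 33.8% of all genes were called, and to 9 without Ts1Cje replicate 1 or 3 (37.6% and 34.7% of all genes). Higher genes numbered 5 without wild-type replicate 2 or Ts1Cje replicate 1, and lower genes 2 without Ts1Cje replicate 3. Without wild-type replicate 1, 16 were called, 11 higher and 5 lower, where 45.1% of all genes were called.

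The changes were also narrow in size. The median log2 fold change (Ts1Cje over wild-type) was 0.09, with quartiles of −0.08 and 0.17, an interquartile range of 0.24 against 0.56 for the other protein-coding genes at these levels. The 95% interval lay wholly within 1.5-fold in either direction for 73 of 77 genes (94.8%), compared with 57.2% of the other protein-coding genes at these levels and 37.5% of all genes tested. The exceptions were Mrps6, Mrps34, Mrpl14 and Mrpl16. The median standard error of the log2 fold change was 0.10 for the mitoribosomal genes and 0.10 for the others at these levels, so the precision of both sets was close. The libraries of the 2 genotypes did not overlap for 28 genes, 19 with Ts1Cje above and 9 with Ts1Cje below (36.4%). In the background of all genes 55.2% did not overlap, 28.8% above and 26.4% below, and among the others at these levels 60.1% did not, 31.3% above and 28.8% below. All 14 called genes were among the 28.

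**Figure D1:**
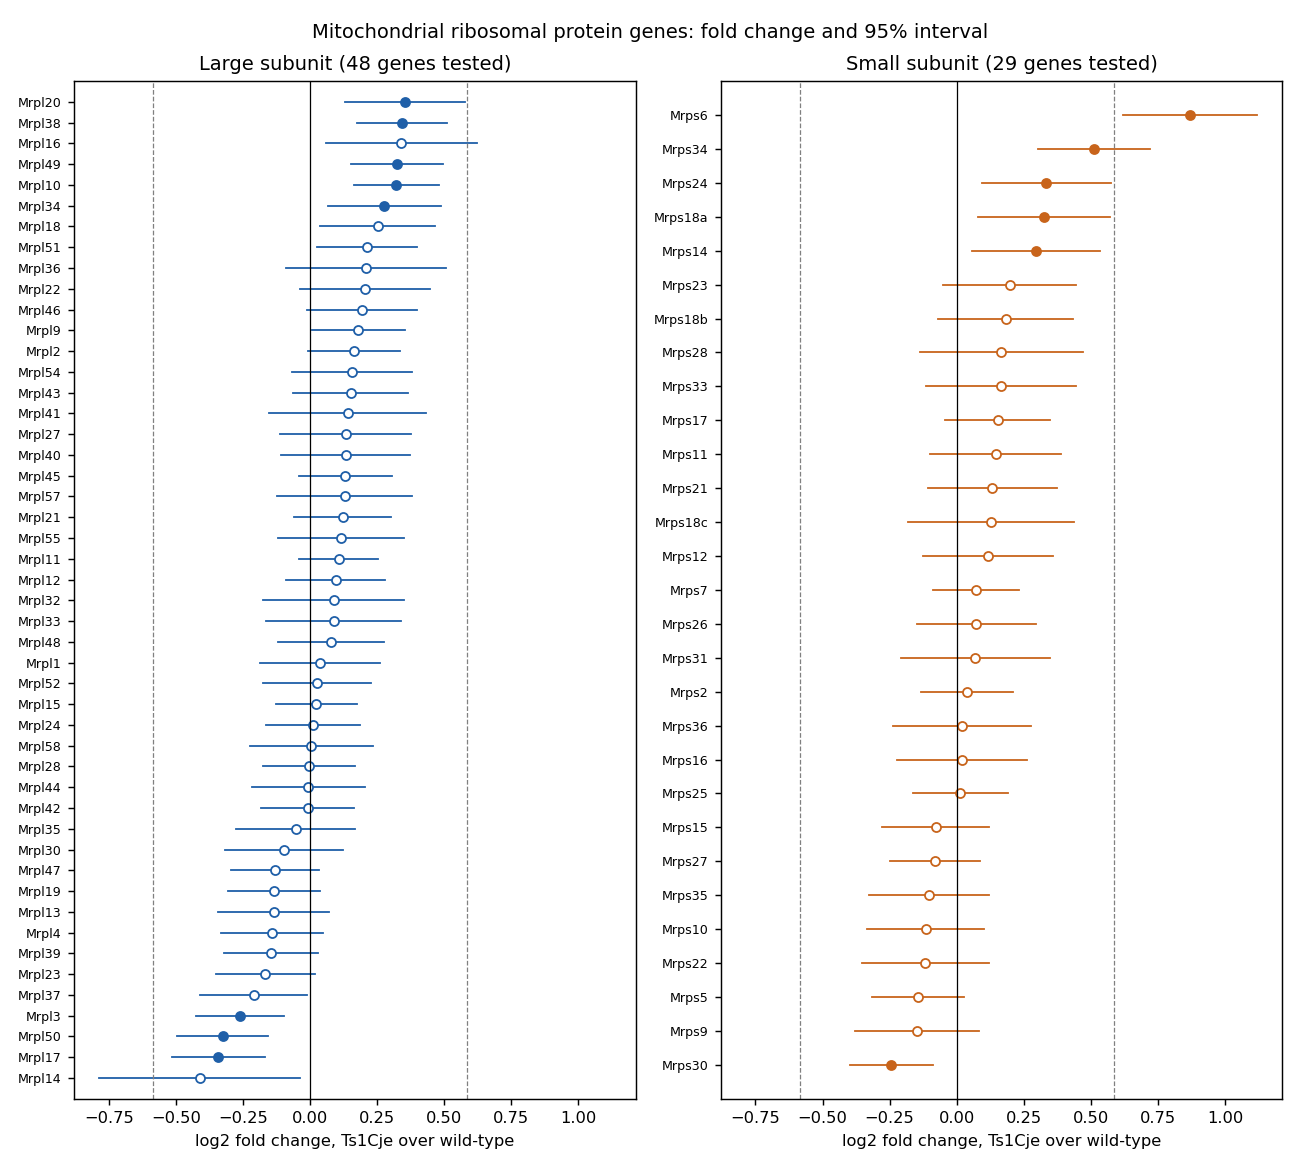
Log2 fold change (Ts1Cje over wild-type, x axis) of each tested mitoribosomal gene, ordered by size, for the 48 large and 29 small subunit genes; points are estimates, lines 95% intervals, filled points passed the test (adjusted p below 0.05), and dashed lines mark 1.5-fold in either direction. Mrps6 is the gene whose interval lies wholly beyond a dashed line, and the intervals of 73 of 77 genes stay between the dashed lines.

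Large and small subunit genes gave close values. In the large subunit 5 genes rose and 3 fell of 48 (16.7%), and in the small subunit 5 rose and 1 fell of 29 (20.7%). The median log2 fold change was 0.09 for the large and 0.07 for the small subunit. Per library, the median deviation of log2 CPM from the wild-type mean was 0.01, −0.01 and 0.01 in wild-type replicates 1 to 3 and 0.11, 0.07 and 0.06 in Ts1Cje for the large subunit. For the small subunit it was −0.05, 0.00 and 0.05 in wild-type and 0.08, 0.07 and 0.10 in Ts1Cje. In both subunits every Ts1Cje library lay above every wild-type library. That also held over all genes tested, at a far smaller size. There the values were −0.0002, 0.0047 and 0.0039 in wild-type and 0.0052, 0.0147 and 0.0048 in Ts1Cje. Leaving out 1 library took the small subunit from 6 calls to 2 (without wild-type replicate 2 or Ts1Cje replicate 3) and its rises from 5 to 2 (also without Ts1Cje replicate 1). Without Ts1Cje replicate 1 the large subunit median was 0.044 and the large minus small difference of the medians −0.064. The rises in the large subunit numbered 3 on leaving out wild-type replicate 2, wild-type replicate 3 or Ts1Cje replicate 1, and 8 without wild-type replicate 1. The difference between the subunits, large minus small, was 0.06, −0.01 and −0.04 in wild-type and 0.03, 0.00 and −0.05 in Ts1Cje, so the genotypes overlapped fully in that measure. With the Mrpl and Mrps genes placed by structure instead of name, 6 of 50 large subunit genes rose and 4 fell. Of 26 small subunit genes 4 rose, and the medians were 0.09 and 0.10. That count leaves out the mitoribosomal proteins with other names, which are given below.

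As a total, the mitoribosomal genes took a slightly larger part of the RNA in Ts1Cje. Their summed level in the authors' TPM, a scaled value corrected for gene length, was 4542 ± 98 in wild-type and 4906 ± 48 in Ts1Cje (SD, n = 3 each). The large subunit genes summed to 3209 ± 86 and 3452 ± 66 TPM, and the small subunit genes to 1333 ± 15 and 1454 ± 18. On the CPM scale, which has no length correction, all genes together summed to 3206, 3168 and 3245 in wild-type and to 3406, 3265 and 3300 in Ts1Cje. For all genes together the groups did not overlap on either scale. In CPM the small subunit sums did overlap, with 1077 in wild-type replicate 3 and 1068 in Ts1Cje replicate 2. No test was made of these sums.

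Mrps6, a small subunit protein with a bacterial counterpart that pairs with the protein encoded by Mrps18c, had the largest rise. It is the only one of the 78 genes that lies in the triplicated segment (chr16:92058270-92112227, plus strand, mm10). Its level was 14.8, 14.6 and 13.5 CPM in wild-type and 26.8, 27.8 and 23.9 CPM in Ts1Cje, and every Ts1Cje library lay far above every wild-type one. The log2 fold change was 0.87 ± 0.11 (SE, adjusted p = 0.000198), or 1.83-fold with a 95% interval from 1.53 to 2.17. The interval thus began just above the 1.5-fold ratio of 3 gene copies to 2. In the 15 other ways of processing the estimate ran from 1.77 to 1.90-fold. The tested genes next to Mrps6, 10 on each side, had a median log2 fold change of 0.60. On the same chromosome, Sod1 (0.83 ± 0.06) and Gart (0.80 ± 0.07), chosen after their values were seen, had values near that of Mrps6. The copy number of Sod1 and Gart in these cells was not tested. Mrps18c, its partner in the small subunit, had 13.0 ± 0.6 CPM in wild-type and 14.2 ± 1.9 in Ts1Cje and did not pass (log2 fold change 0.13 ± 0.14, adjusted p = 0.491).

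The exons of Mrps6 share 159 bases (10.4% of their length) with Slc5a3, a myo-inositol transporter gene nested at the same start (chr16:92058322-92087473). Slc5a3 had 34.3, 36.3 and 35.0 CPM in wild-type and 30.2, 45.0 and 37.5 CPM in Ts1Cje (log2 fold change 0.09 ± 0.13, adjusted p = 0.610), so its groups overlapped. These lie within 305 bases (19.9%) shared with Gm49711, which had at most 2 counts in any library. The other members on chromosome 16 lie before the segment. Mrpl39 (chr16:84717576-84735742) had a log2 fold change of −0.15 ± 0.08 (adjusted p = 0.160), with 50.2, 47.4 and 48.7 CPM in wild-type and 46.1, 43.0 and 42.9 in Ts1Cje. Mrpl40 (chr16:18872018-18876862) had 0.13 ± 0.11 (adjusted p = 0.352) and overlapping libraries.

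**Figure D2:**
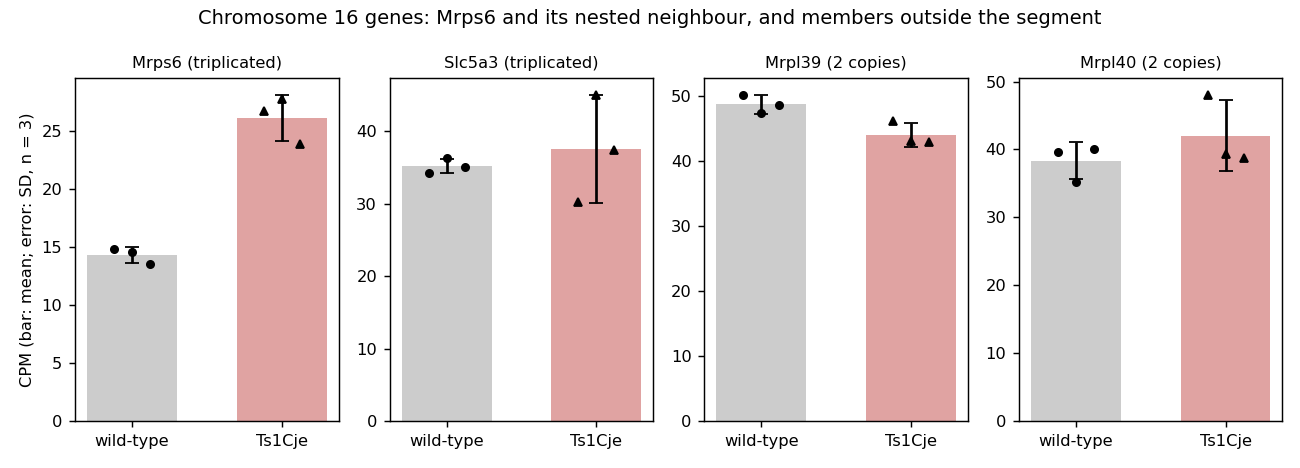
CPM of Mrps6 and of Slc5a3, which overlap in the triplicated segment, and of Mrpl39 and Mrpl40 elsewhere on chromosome 16; bars are means, points the 3 libraries of each genotype, error bars SD. Mrps6 rises from 14.3 to 26.2 CPM with no overlap, whereas the bars of the other 3 genes differ by far less.

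In the small subunit, Mrps34 had the next largest rise. Its product is a mitochondrion-specific protein needed for a stable small subunit. It had 30.1, 27.0 and 30.7 CPM in wild-type and 44.3, 39.9 and 40.8 CPM in Ts1Cje, again without overlap (log2 fold change 0.51 ± 0.09, adjusted p = 0.00162). Of its exonic bases, 63.4% are shared with Mapk8ip3 on the other strand and 37.0% with Nme3 on the same strand. Mapk8ip3 had a log2 fold change of −0.22 ± 0.10 (adjusted p = 0.121, and 0.00230 without wild-type replicate 1). Nme3 had 0 counts in all 6 libraries. Whether the counts of Mrps34 hold reads of Nme3 is not known, because the treatment of reads in shared bases is not given. Mrps24, the counterpart of a bacterial protein at the mRNA entrance, rose from 23.9 ± 2.4 to 30.1 ± 1.7 CPM (0.33 ± 0.11, adjusted p = 0.0298). Mrps14, the counterpart of a bacterial protein of the subunit's head, rose from 26.9 ± 2.0 to 33.0 ± 3.1 CPM (0.29 ± 0.11, adjusted p = 0.0481), its call held in 4 of 15 alternatives, and it is named here after its values were seen.

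A pair of genes with small subunit names but a place in the large subunit moved in opposite directions. Mrps18a rose, with 33.2 ± 4.7 CPM in wild-type and 41.6 ± 1.8 in Ts1Cje (log2 fold change 0.32 ± 0.11, adjusted p = 0.0364). Mrps30 fell from 68.0, 70.3 and 72.6 CPM in wild-type to 60.3, 60.2 and 57.6 CPM in Ts1Cje (−0.24 ± 0.07, adjusted p = 0.0173). The other 2 paralogues of Mrps18a did not pass, with 0.18 ± 0.11 for Mrps18b (adjusted p = 0.223) and the value above for Mrps18c. Mrps36 had 23.7 ± 2.0 and 24.0 ± 2.4 CPM (0.02 ± 0.12, adjusted p = 0.901). Without wild-type replicate 2, the calls of Mrps24, Mrps14, Mrps18a and Mrps30 were lost (adjusted p of 0.124, 0.0529, 0.148 and 0.0563). That of Mrps24 was also lost without wild-type replicate 1 or Ts1Cje replicate 1 or 3 (up to 0.112), that of Mrps18a without wild-type replicate 1 or any Ts1Cje library (up to 0.117), that of Mrps14 without any library but Ts1Cje replicate 2 (up to 0.174), and that of Mrps30 without wild-type replicate 3 or Ts1Cje replicate 3 (0.0654 and 0.0652).

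In the large subunit, the rises were all smaller than that of Mrps34. Mrpl38, a mitochondrion-specific protein of the central protuberance, had 51.2, 50.9 and 51.7 CPM in wild-type and 67.8, 66.6 and 60.9 CPM in Ts1Cje (log2 fold change 0.34 ± 0.08, adjusted p = 0.00441). Its wild-type libraries lay within 1 CPM of each other and all Ts1Cje libraries were above them. Mrpl10, which anchors the stalk that recruits translation factors, had 52.3, 54.8 and 55.5 CPM in wild-type and 69.6, 65.7 and 67.8 CPM in Ts1Cje (0.32 ± 0.07, adjusted p = 0.00470). Mrpl49, a mitochondrion-specific protein, had 52.5, 59.2 and 58.2 CPM in wild-type and 73.1, 68.0 and 71.7 CPM in Ts1Cje (0.32 ± 0.08, adjusted p = 0.00690). None of these libraries overlapped between genotypes. Mrpl20, whose bacterial counterpart binds ribosomal RNA early in assembly, rose from 35.5 ± 3.7 to 45.3 ± 2.9 CPM (0.35 ± 0.10, adjusted p = 0.0167). Mrpl34, a small basic protein with a bacterial counterpart, rose from 32.3 ± 0.2 to 39.2 ± 3.7 CPM (0.28 ± 0.09, adjusted p = 0.0370). Leaving out any 1 of wild-type replicates 2 and 3 or Ts1Cje replicate 1 ended the call of Mrpl20 (adjusted p of 0.0705, 0.0694 and 0.0628), and leaving out any library except Ts1Cje replicate 3 ended that of Mrpl34 (adjusted p up to 0.136), as did DESeq2 (0.0651).

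The large subunit also held 3 of the 4 genes that fell. Mrpl17, whose bacterial counterpart lies near the exit of the peptide tunnel, had 67.4, 60.6 and 66.9 CPM in wild-type and 52.7, 51.7 and 49.4 CPM in Ts1Cje (log2 fold change −0.34 ± 0.08, adjusted p = 0.00531). Mrpl50, a mitochondrion-specific protein, had 56.7, 53.7 and 53.7 CPM in wild-type and 45.1, 43.3 and 42.6 CPM in Ts1Cje (−0.33 ± 0.08, adjusted p = 0.00624). Mrpl3, whose bacterial counterpart reaches toward the peptidyl transferase centre, had 75.9, 70.0 and 71.9 CPM in wild-type and 63.7, 59.5 and 58.5 CPM in Ts1Cje (−0.26 ± 0.07, adjusted p = 0.0154, and 0.0608 without Ts1Cje replicate 3). In all 3 genes every Ts1Cje library lay below every wild-type library. Mrpl14, named here after its values were seen, had the lowest estimate of all 77 genes (−0.41 ± 0.17) but did not pass (adjusted p = 0.0716). Its wild-type libraries were unequal, at 15.2, 20.2 and 22.8 CPM against 13.4, 13.5 and 16.7 CPM in Ts1Cje, and without wild-type replicate 1 it passed (adjusted p = 0.00727). Mrpl16 and Mrpl18, also chosen after their values were seen, missed the threshold on the higher side (0.34 ± 0.13, adjusted p = 0.0506, and 0.25 ± 0.10, adjusted p = 0.0562), and without wild-type replicate 1 both passed (0.0158 and 0.00657).

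Of the 14 calls, 7 held in all 15 alternatives, those of Mrps6, Mrps34, Mrpl10, Mrpl38, Mrpl49, Mrpl17 and Mrpl50. These genes are spread over the roles in the ribosome. Of the 30 large subunit genes with bacterial counterparts 3 rose and 2 fell (median 0.09), and of the 18 mitochondrion-specific ones tested 2 rose and 1 fell (median 0.13). Of the 16 small subunit genes with bacterial counterparts 3 rose (median 0.12), and of the 10 mitochondrion-specific ones 1 rose (median 0.07). All 5 genes listed here for the central protuberance, which touches the small subunit, had estimates above zero with a median of 0.19. In the whole family 53 of 77 estimates lay above zero. Mrpl38 was the 1 of these 5 genes that passed. Of the 6 genes listed for the peptide exit tunnel 1 passed, Mrpl17, which fell, and their median was −0.06. Of the 4 tested genes listed for the stalk 1 passed, Mrpl10, which rose (median 0.13).

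**Figure D3:**
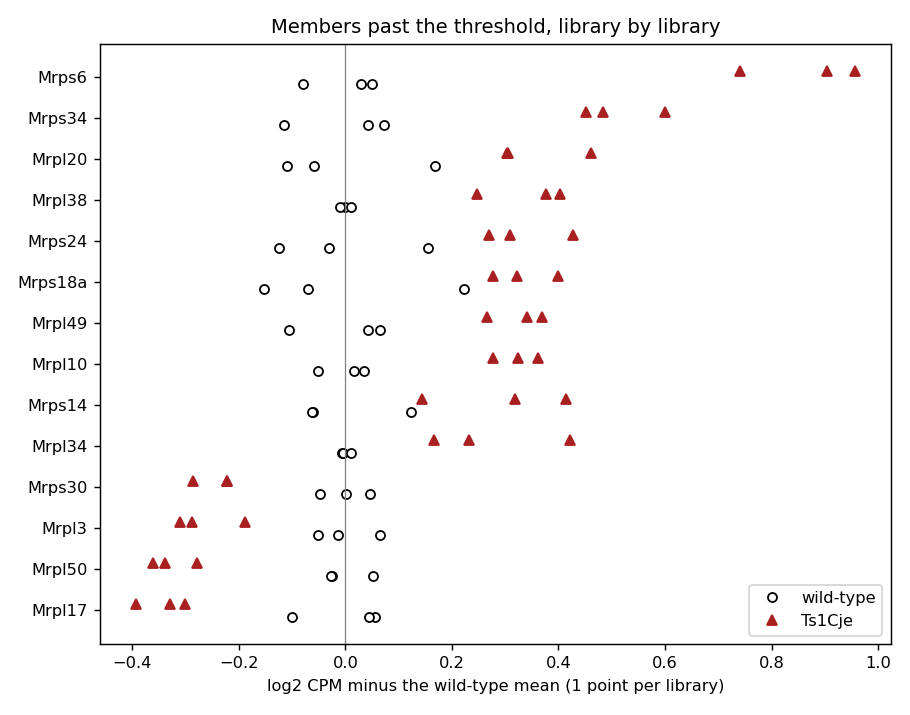
Log2 CPM of each library minus the wild-type mean (x axis) for the 14 mitoribosomal genes past the threshold, with open circles for the 3 wild-type and triangles for the 3 Ts1Cje libraries. In each of the 14 genes the triangles lie wholly to 1 side of the circles, and the shift of Mrps6 is the largest.

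The order of levels among the genes was largely kept between the genotypes. On the length-corrected TPM scale, Mrpl12, the stalk protein that contacts translation factors, was the highest large subunit gene (212 ± 14 in wild-type and 227 ± 20 in Ts1Cje) and Mrpl33 the lowest (8.20 ± 0.57 and 8.75 ± 0.49). In the small subunit, Mrps21 was the highest (113 ± 5 and 125 ± 12 TPM) and Mrps35 the lowest (15.1 ± 1.1 and 14.1 ± 0.9 TPM). None of these 4 genes passed the test. Across the 77 genes, log2 TPM in wild-type and Ts1Cje correlated with r = 0.980 and rho = 0.973, a description over genes that share the same libraries and lengths. The highest and the lowest gene differed 25.9-fold. The deposited TPM use the summed length of all annotated exons of a gene, which is 7326 bases for Mrpl33 and 8631 for Mrps35 but 1532 for Mrpl12 and 739 for Mrps21, and a longer annotated length lowers the TPM. The gene left untested, Mrpl53 (chr6:83109040-83109939), had 0 counts in every library. Of its exonic bases, 88.0% are shared with Gm42688, which had 14 to 30 counts per library.

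The mitoribosomal proteins with other names are core subunits as well. None of the 5 belongs to the naming rule, and 3 of them fell. Ptcd3, a small subunit protein that binds RNA, had 117 ± 10 CPM in wild-type and 88.9 ± 9.1 in Ts1Cje (log2 fold change −0.39 ± 0.09, adjusted p = 0.00680). Chchd1 fell from 44.5 ± 2.9 to 35.9 ± 2.3 CPM (−0.31 ± 0.09, adjusted p = 0.0196), and Dap3, a GTP-binding small subunit protein, from 102 ± 4 to 88.7 ± 0.6 CPM (−0.19 ± 0.06, adjusted p = 0.0310). Gadd45gip1 and Aurkaip1 did not pass, with −0.11 ± 0.09 and 0.09 ± 0.08. The count of 3 dropped to 1, Ptcd3, without wild-type replicate 2 or 3 or without Ts1Cje replicate 1 or 3. Dap3 also did not pass without Ts1Cje replicate 2 (adjusted p = 0.0628). Of the 6 Mrps genes that passed, 5 rose.

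Around the ribosome, 96 genes of mitochondrial gene expression were tested, and 11 rose and 18 fell. That is 30.2% called, against 43.8% of all genes, and the 18.8% that fell are near the background of 20.5%. The 11 dropped to 5 without wild-type replicate 2 and to 7, 6 and 6 without Ts1Cje replicates 1, 2 and 3. Of 31 assembly factors 4 rose and 6 fell (median −0.07). The largest changes were those of Mrm1, which methylates the large ribosomal RNA (log2 fold change 1.25 ± 0.18, adjusted p = 0.000405), and Mpv17l2, an inner membrane protein bound to the large subunit (1.08 ± 0.18, adjusted p = 0.000834). Of 16 translation factors 3 rose and 1 fell (median −0.01), and without any 1 of the Ts1Cje libraries 1 rose, as with DESeq2. Without wild-type replicate 2 edgeR called 0 higher, with 2 higher at an uncorrected p below 0.05. Guf1, an elongation factor that moves ribosomes backward, fell from 78.9 ± 5.4 to 48.8 ± 1.6 CPM (−0.69 ± 0.08, adjusted p = 9.08e-05), and Gfm1, the translocation factor, rose (0.30 ± 0.08, adjusted p = 0.00967, and 0.0522 without wild-type replicate 2). Of 20 aminoacyl-tRNA synthesis genes 2 rose, the cysteine and phenylalanine enzymes Cars2 (0.51 ± 0.11, adjusted p = 0.00324) and Fars2 (0.41 ± 0.14, adjusted p = 0.0395). The call of Fars2 held in 5 of 15 alternatives. It ended without any 1 of wild-type replicates 2 and 3 and each Ts1Cje library. With all libraries kept it also ended with DESeq2 (adjusted p = 0.0544), upper-quartile scaling, no filter and limma on log2 TPM (up to 0.0766).

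Of 13 genes of mitochondrial transcription and RNA processing 4 fell (median −0.23). They included Trmt10c and Hsd17b10, both subunits of the RNase P that cuts transfer RNAs out of mitochondrial transcripts (log2 fold change −0.52 ± 0.09, adjusted p = 0.00138, and −0.51 ± 0.09, adjusted p = 0.000897). Tfam, which packages mitochondrial DNA and starts its transcription, fell from 102 ± 5 to 79.3 ± 4.7 CPM (−0.36 ± 0.07, adjusted p = 0.00327). Of 11 regulators of mitochondrial biogenesis 2 rose and 4 fell, and 1 rose without any 1 library except wild-type replicate 3. Myc had 120, 170 and 193 CPM in wild-type and 49.2, 50.1 and 41.7 CPM in Ts1Cje (−1.78 ± 0.18, adjusted p = 0.000207), and Mycn fell as well (−0.78 ± 0.19, adjusted p = 0.0171). Esrra, a nuclear receptor of mitochondrial genes, rose from 25.6 ± 2.2 to 42.5 ± 1.0 CPM (0.73 ± 0.10, adjusted p = 0.000207), and the coactivator gene Pprc1 fell (−0.26 ± 0.06, adjusted p = 0.00733). Nrf1, Gabpa and Yy1, factors that bind promoters of many nuclear genes for mitochondria, did not pass (−0.12 ± 0.07, −0.18 ± 0.08 and −0.07 ± 0.08), although Gabpa passed as lower without Ts1Cje replicate 1 (adjusted p = 0.0280) and with lots as a block (0.0247). Ppargc1a had 2 to 7 counts per library and was not tested.

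The neighbouring systems gave values on either side of the mitoribosome. Over all genes tested, 23.3% rose and 20.5% fell. Of 81 cytosolic ribosomal protein genes 60 fell and 2 rose (74.1% and 2.47%, median −0.31). Their median deviation was −0.11, 0.00 and 0.11 in wild-type against −0.30, −0.31 and −0.32 in Ts1Cje. Nuclear genes of the respiratory chain and ATP synthase were taken by symbol prefix, which also matches assembly factors named Ndufaf or Sdhaf. Of these 95 genes 34 rose and 4 fell (35.8% and 4.21%, median 0.14). Without wild-type replicate 2, 21 rose, and without wild-type replicate 3, 2 fell. Their median deviation was 0.01, −0.03 and 0.02 in wild-type against 0.13, 0.16 and 0.17 in Ts1Cje. Of the 12 coding genes of the mitochondrial genome tested 4 rose (33.3%, median 0.28). The mitochondrial ribosomal RNAs, which poly(A) libraries capture poorly and which were chosen after their values were seen, did not pass (mt-Rnr1, 0.13 ± 0.13, adjusted p = 0.444, and mt-Rnr2, 0.47 ± 0.30, adjusted p = 0.265, or 0.0226 with lots as a block). The median of the mitoribosomal genes, 0.09, lay between those of the cytosolic ribosome and the mitochondrial genome, and all these values rest on the same 6 libraries.

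**Figure D4:**
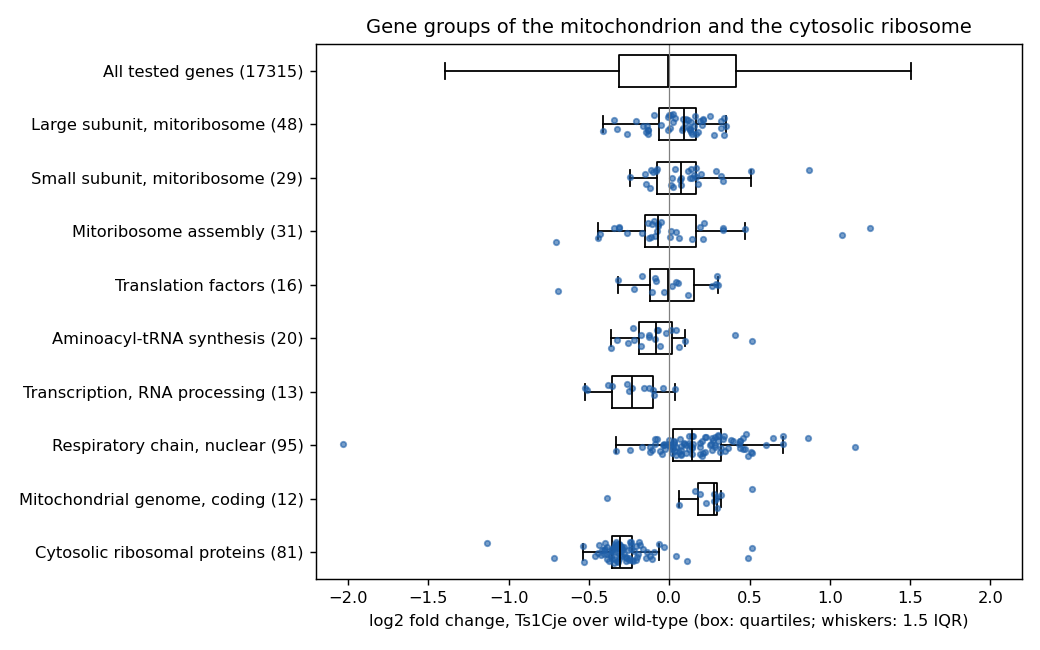
Log2 fold change (Ts1Cje over wild-type, x axis) of the tested genes in each group, with boxes for quartiles and median and points for single genes. The boxes of the large and small subunit sit slightly above zero with medians of 0.09 and 0.07, that of the cytosolic ribosomal proteins below zero with a median of −0.31.

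The 78 genes lie on 17 chromosomes, and the level of nearby genes was compared with theirs. For 8 genes the median log2 fold change of the neighbours, 10 tested genes on each side, lay beyond 0.3 in size, 5 above and 3 below, and 2 of the 8 were called, Mrps6 and Mrpl10 (neighbours 0.60 and 0.34). Around Mrpl23 on chromosome 7, the neighbours had a median of −1.12 while Mrpl23 itself had −0.17 ± 0.08 (adjusted p = 0.133). Around Mrpl9 on chromosome 3 they had 0.51, and Mrpl9 had 0.18 ± 0.08 (adjusted p = 0.0872). Libraries of the genotypes did not overlap for either gene, with Ts1Cje below for Mrpl23 and above for Mrpl9. Both were named after their values were seen. Over the 77 genes, the gene's own value and its neighbours' median correlated with r = 0.42 and rho = 0.32, and without Mrps6 with r = 0.33 and rho = 0.29, as a description with no test. On chromosome 11, which holds 11 of the genes, all 11 estimates lay above zero, as did 53 of the 77 over the whole family. That chromosome was picked after its values were seen, and its members' neighbours had medians from −0.09 (Mrpl58) to 0.35 (Mrpl45). There 3 genes rose, Mrpl10, Mrpl38 and Mrps24, a share of 27.3% that is near the 23.3% of all genes called higher.

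**Figure D5:**
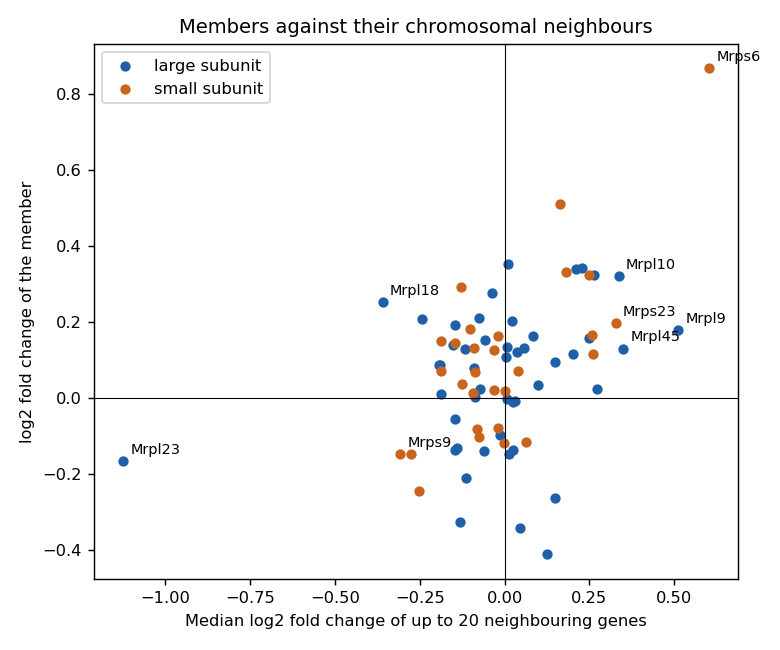
Log2 fold change of each mitoribosomal gene (y axis) against the median log2 fold change of up to 20 neighbouring tested genes (x axis); each point is a gene, coloured by subunit, and the 8 genes whose neighbours lie beyond 0.3 in size are named. Mrps6 stands at the upper right, and Mrpl23 at the far left has a value of −0.17, with a median of −1.12 among its neighbours.

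A nearby start of a gene on the other strand was common. Of the 77 genes, 33 (42.9%) had the start of a protein-coding gene on the opposite strand within 1000 bases, compared with 15.5% of 13807 tested protein-coding genes. Pairs facing away from each other and pairs overlapping at their starts both counted. They ran from starts 935 bases apart (Mrpl41 and Pnpla7) to an overlap of 891 bases (Mrpl48 and Rab6a). Mrps11 and Mrpl46 were each other's partner, and had log2 fold changes of 0.14 ± 0.11 and 0.19 ± 0.09 (adjusted p = 0.317 and 0.116). Of the 31 other partners 3 rose and 5 fell, and in 17 of 31 pairs the estimates had the same sign. In 1 pair both fell (Mrpl50 and the zinc finger gene Zfp189, whose value was −0.99), and in 1 pair they moved apart (Mrpl49, and Fau, which encodes a cytosolic ribosomal protein, at −0.22, a call lost on leaving out wild-type replicate 2, wild-type replicate 3, Ts1Cje replicate 1 or Ts1Cje replicate 3, with adjusted p up to 0.0705).

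Promoters were taken from RefSeq (GRCm38.p6), 250 bases before to 50 after each start, and 68 of the 77 tested genes were matched, with 74 promoters. Each was searched on both strands for CCGGAAG (ETS family, the letters read by the factor encoded by Gabpa), AAGATGGC (YY1), TGACGTCA (CRE) and CACGTG (E-box, bound by MYC among others) and for the palindromic site of NRF1, and no hits of different motifs overlapped. CCGGAAG was in 33.8% of mitoribosomal promoters, in 16.2% of promoters of tested protein-coding genes and in 8.86% of all promoters. AAGATGGC was in 16.2%, 4.06% and 2.75%, and the NRF1 site in 4.05%, 1.93% and 0.971%. CACGTG (9.46%, 9.65% and 7.15%) and TGACGTCA (2.70%, 2.94% and 1.79%) were about as frequent in the 74 promoters as in those of tested genes. Some of these shares rest on few promoters, 3 of 74 for the NRF1 site and 2 for TGACGTCA. CACGTG was in 7 promoters but 5 of the 68 genes, because several starts of Mrpl2 hold the same site. Genes with CCGGAAG had a median log2 fold change of 0.13 and those without it 0.07. Of the genes that passed and had a promoter, CCGGAAG was in 2 of 8 that rose and 2 of 4 that fell.

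The stretches before the start that hold no annotated exon are shown for 4 genes. Mrpl17 fell and Mrpl34 and Mrps18a rose although all 3 hold CCGGAAG, and Mrps6, the triplicated gene, holds none of the 5 motifs. Sequences run 5′ to 3′ on the gene's strand, and capitals mark CCGGAAG, which lies at −237 to −231 in Mrpl17, −37 to −31 in Mrpl34 and −26 to −20 in Mrps18a relative to the RefSeq start.
Mrpl17 chr7:105811100-105811337 (minus strand): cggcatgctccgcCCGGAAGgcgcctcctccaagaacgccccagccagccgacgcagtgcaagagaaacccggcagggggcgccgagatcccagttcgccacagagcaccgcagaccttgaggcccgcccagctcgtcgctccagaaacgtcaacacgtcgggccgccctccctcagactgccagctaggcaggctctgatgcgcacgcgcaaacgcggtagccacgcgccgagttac
Mrpl34 chr8:71464676-71464925 (plus strand): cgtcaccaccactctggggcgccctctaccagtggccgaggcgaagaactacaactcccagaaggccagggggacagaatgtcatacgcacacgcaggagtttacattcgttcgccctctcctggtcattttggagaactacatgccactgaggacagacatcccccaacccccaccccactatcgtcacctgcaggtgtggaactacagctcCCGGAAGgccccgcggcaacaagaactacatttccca
Mrps18a chr17:46110754-46110985 (plus strand): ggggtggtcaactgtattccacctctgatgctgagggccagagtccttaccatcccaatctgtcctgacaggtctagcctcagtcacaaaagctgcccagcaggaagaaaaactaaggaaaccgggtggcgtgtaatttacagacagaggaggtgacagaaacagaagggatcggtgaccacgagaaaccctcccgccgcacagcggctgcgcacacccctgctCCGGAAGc
Mrps6 chr16:92058086-92058269 (plus strand): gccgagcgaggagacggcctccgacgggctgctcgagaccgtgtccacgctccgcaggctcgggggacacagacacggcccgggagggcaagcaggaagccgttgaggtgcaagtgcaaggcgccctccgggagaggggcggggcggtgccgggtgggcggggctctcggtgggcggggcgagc
A match describes letters in this window and is not a binding measurement.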

How the data were processed

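Poly(A) RNA-seq libraries of 3 Ts1Cje and 3 wild-type samples were analysed from the deposited tables. Read counts for each Ensembl gene, not normalized, and TPM of the same libraries were deposited by the authors. Per the submitters' processing notes, HISAT2 2.1.0, Trimmomatic 0.38, featureCounts 1.6.3 and FastQC 0.11.7 are named as tools, and mm10 as the genome, with no roles or settings. Whether counting used strand, and how multiply aligned reads were treated, is not given in the sources used here. Of the tested members, 17 share more than 10% of their exonic bases with other genes, summed over the genes of one strand, so such reads are uncertain. Processed pseudogenes of the family were not included.

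Counts were filtered with filterByExpr of edgeR 4.0.16 (minimum count 10, minimum total 15), scaled with TMM and tested with its quasi-likelihood test (robust, no covariate), with Benjamini-Hochberg adjustment over 17315 genes and a threshold of 0.05, in R 4.3.3. The approximate SE divides the size of the log2 fold change by the root of F. CPM use TMM-scaled totals. Libraries of 1 genotype differed beyond sampling noise (chi-square per degree of freedom from 4.70 to 18.0). TPM equalled counts over the summed exon length of GENCODE M21 for 77 of 77 genes within a tolerance of 0.001. The test was checked on simulated counts.

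The members, gene lists and tests were chosen with earlier results of these data known. Named genes were up to 8 members with the largest rise and up to 8 with the largest fall among those past the threshold (4 fell), the 3 of each subunit with the smallest adjusted p, those on chromosome 16, those with the highest and lowest TPM, the Mrps18 paralogues, Mrps30 and Mrps36, genes with a printed promoter, and, outside the family, the other-named mitoribosomal proteins, the 2 called genes with the largest change per list and 9 set regulators. Overlapping genes and genes with a nearby opposite start are named where a value turns on them, after their values were seen. Alternatives were DESeq2 1.42.0, limma 3.58.1 (voom on counts, trend on log2 TPM plus 1 or 0.1), other scalings and filters, leaving out each library, a replicate block, subunits by structure, and leaving out members in shifted stretches.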

Additional observations from a re-analysis of the deposited data

How the results depend on the processing

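For 59 genes named in the text, Mrps6 included, the value was recomputed under 15 alternatives, and no call changed direction. Of these 885 values 808 stayed on the same side of the threshold, 59 lost a call and 18 gained one. The median log2 fold change over the mitoribosomal genes ran from 0.06 to 0.12 in the 15 alternatives. Leaving out 1 library at a time, called genes ran from 8 (without wild-type replicate 2, 33.8% of all genes) to 16 (without wild-type replicate 1, 45.1%). Higher genes ran from 5 to 11 and lower genes from 2 to 5. In the large subunit the same fits gave 6 to 12 called, 3 to 8 higher and 2 to 4 lower, and a median of 0.044 to 0.12. In the small subunit they gave 2 to 5 called, 2 to 4 higher and 0 to 1 lower, and a median of 0.05 to 0.11. Large minus small ran from −0.064 to 0.044. In the pathway lists, 5 to 9 genes were higher and 12 to 21 lower. With the lots taken as pairs (replicate block in edgeR), 13 large subunit genes were called, 8 higher and 5 lower. In all 19 members were called (24.7%), against 48.1% of all genes in that fit. The labels do not state what lots of the same number share. Same-lot correlations of deviations from the group mean were 0.219, 0.0589 and 0.202, and each library correlated best with its own number. Between different numbers they ran from −0.198 to 0.0387. Whether lots of the same number share a batch was not tested. Placing the Mrpl and Mrps genes by structure left 0 of them lower in the small subunit in edgeR, also 0 at an uncorrected p below 0.05. DESeq2 and limma-voom gave 0 as well. That count leaves out the small subunit proteins with other names, of which Ptcd3, Chchd1 and Dap3 fell in the main fit. Fits that leave out a library have fewer samples. The median SE of 0.10 on the log2 scale limits what can be called for a single gene.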
